A study of Mus musculus with 8 samples.

Results

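The genes described here are those that take up glucose and carry its carbon through glycolysis, pyruvate dehydrogenase and the citric acid cycle. They were taken by symbol from a list of 41 genes, by a rule that uses no measured value, although earlier results of these data were known when the list was drawn up. Of the 41, 39 had a probe set annotated to that gene alone, out of 18194 such genes on the array, and Gpi1 and Eno1 were not analysed here. Gapdh lay only on the array's own control probe sets, so 38 genes entered the fit across all genes, on 89 probe sets. The RPE/choroid, which is the retinal pigment epithelium with the vascular layer behind it, came from male C57BL/6 mice. There were 4 samples of old mice, aged 26 months, and 4 samples of young mice, aged 4 months. The labels name no treatment, and the comparison asks how the tissue differs with age. Each sample pooled 4 RPE/choroids of 2 animals and was run on 1 Affymetrix Mouse 430 2.0 array, so that each replicate represents 2 mice, and n = 4 per age throughout.

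Glycolysis splits glucose to pyruvate in the cytosol. Its preparatory phase spends ATP to make triose phosphates, and its pay-off phase returns ATP and NADH. Pyruvate is then reduced to lactate, or enters the mitochondrion, where pyruvate dehydrogenase makes acetyl-CoA and the citric acid cycle oxidizes it. In the eye, the RPE passes glucose from the choroidal blood on to the photoreceptors and takes up lactate that the retina releases, while RPE cells themselves are known to rely on mitochondrial oxidation. Many steps have several isoforms, which are made by different genes in different tissues.

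The promoter of Slc2a1, which encodes the glucose transporter GLUT1, is shown first because Slc2a1 had the most negative difference with age among the 38 genes. The sequence covers the 250 bases before its start (chr4:119108495-119108744, plus strand, RefSeq, GRCm38.p6), with the letters ACGTG, the core of the hypoxia response motif, in capitals.
Slc2a1: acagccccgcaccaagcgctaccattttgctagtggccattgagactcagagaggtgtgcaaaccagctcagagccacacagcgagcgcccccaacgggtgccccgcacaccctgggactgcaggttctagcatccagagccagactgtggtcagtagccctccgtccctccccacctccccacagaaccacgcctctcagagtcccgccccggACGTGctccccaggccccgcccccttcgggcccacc
This motif lay 36 bases before the start of Slc2a1. Read on both strands, it was found in 13 of the 39 listed genes with a promoter entry (33.3%), against 4998 of 27025 genes in all (18.5%). Slc2a3 and Idh3a had no entry. Besides Slc2a1, the genes with a match were Aldoa, Hk2, Idh3g, Ldha, Mdh1, Ogdh, Pcx, Pdhb, Pfkm, Pgam1, Pgk1 and Pkm. Of these 13 genes only Slc2a1 passed the test of age described next, where 21.3% of all genes passed. The windows of 23 bases around a match in other genes are shown to set beside it, with the motif in capitals as ACGTG, or as CACGT where it is read on the opposite strand.
Hk2, chr6:82774493-82774515, minus strand: gagcacatcCACGTcactgtccg
Aldoa, chr7:126799367-126799389, minus strand: ggctcgagtCACGTcctagcggg
Pgk1, chrX:106186960-106186982, plus strand: tggaagtagCACGTctcactagt
Pgam1, chr19:41911748-41911770, plus strand: tccttgcttACGTGcgctccgtg
Pkm, chr9:59657143-59657165, plus strand: cgatccggtCACGTccgcgccgc
Ldha, chr7:46845761-46845783, plus strand: gggttcccgCACGTccgctgggc
A match is a description of these letters and not a site of binding. Ldha, which converts pyruvate to lactate, held 5 of them in its promoter window.

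Across both pathways, few transcripts differed with age and the differences were small. By limma, with an adjusted p under 0.05 taken over all probe sets, 2 of the 38 genes were higher in old RPE/choroid (5.26%), against 11.8% of all genes. Another 4 were lower (10.5%), against 9.56% of all genes. In either direction this is 6 of 38 (15.8%), against 21.3% of all genes. The higher genes were Pgam2 and Idh1, and the lower ones were Slc2a1, Aco1, Idh3a and Suclg1. None passed the stricter thresholds of the study, a fold over 2 with an adjusted p under 0.01, which 1.23% of all genes passed, while 10 of the 38 had an unadjusted p under 0.05, against 37.4% of all genes. Without old replicate 3, old replicate 4 or any 1 young array the count of higher genes was 1, and without old replicate 1 it was 3. The differences (log2, old minus young) ran between -0.31 and 0.49 with a median of -0.05, beside a median of -0.02 over all genes. They were positive for 13 genes and negative for 25, and 34 were below 0.25 in size. For 27 of the 32 genes that did not pass, the 95% interval of the difference lay within 1.25-fold in both directions. Without overlap between the ages were 10 of the 38 genes, against 29.5% of all genes. The old arrays were all higher for 2 of them, against 15.8% of all genes, and all lower for 8, against 13.7% of all genes. The 8 also hold Aldoa, Ldhb, Idh3b and Mdh1, which did not pass the test.

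**Figure D1:**
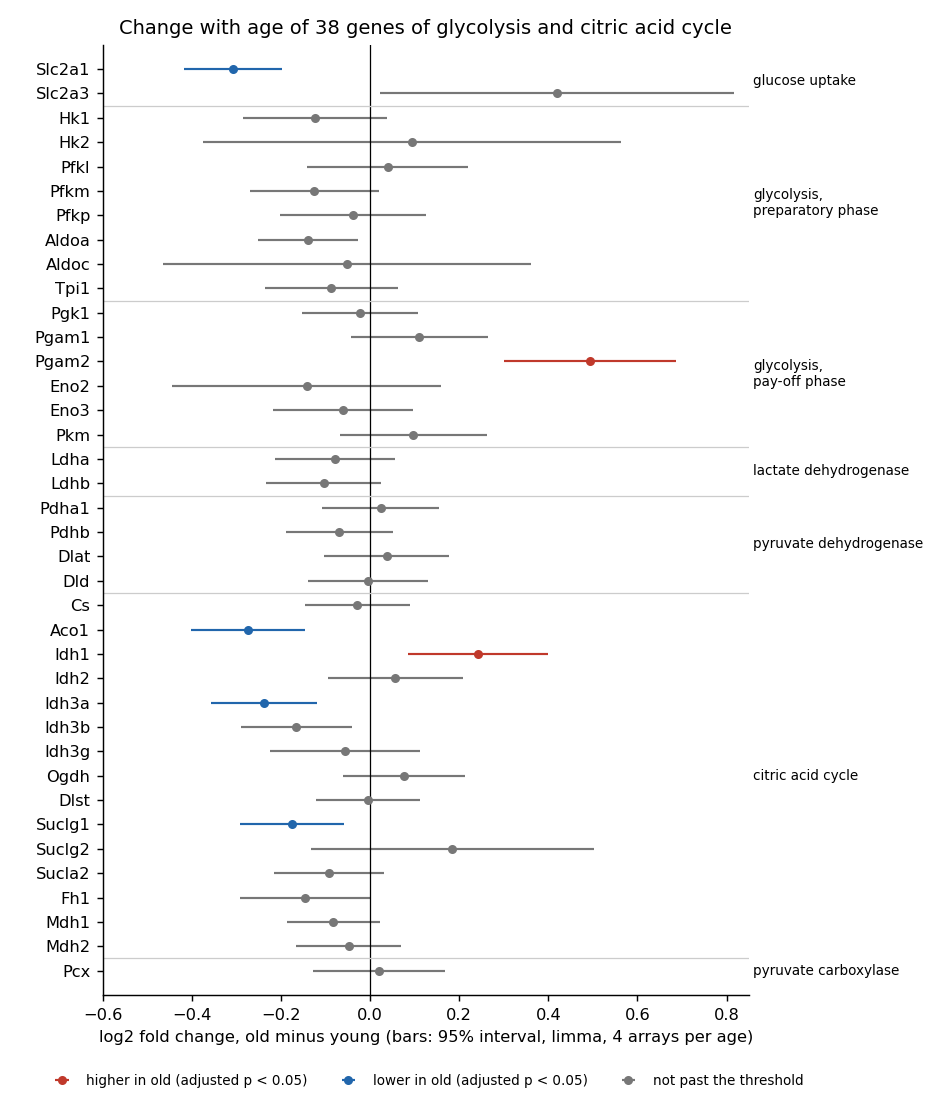
The difference with age of each of the 38 genes, as log2 fold change, old minus young, on the horizontal axis, with its 95% interval by limma (4 arrays per age), ordered by step of the pathway. Most points lie close to 0, with Pgam2 and Idh1 to the right and Slc2a1, Aco1, Idh3a and Suclg1 to the left past the threshold.

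The arrays themselves were alike in median intensity, which was 129 to 135 on every array. The highest value was 18607 to 18802 on the old arrays and 18957 to 19749 on the young arrays, without overlap. With quantile normalization, which gives all arrays the same range, 5 of the 38 genes were lower, against 11.3% of all genes. These were Slc2a1, Aco1, Idh3a, Idh3b and Suclg1. In that fit 1 gene was higher (Pgam2), against 10.6% of all genes. Whether the highest values bear on the differences of bright genes was not tested. Arrays of the same age correlated at 0.991 or more, and arrays of different ages at 0.981 to 0.989, across all probe sets. The labelled tissue was borne out by RPE markers, since Rpe65 read 10806 to 11414 in old and 10929 to 12118 in young. Markers of other tissues were present too. The 15 photoreceptor markers summed to 10481 to 27131 in old and 12964 to 27234 in young, and so varied widely between arrays of the same age. In a mixed tissue, fewer cells of a type and less RNA per cell cannot be told apart.

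Of the 2 glucose transporters, Slc2a1 was lower in old RPE/choroid. Slc2a1 (probe set 1434773_a_at), the transporter that brings glucose across the RPE, read 7681, 7634, 7581 and 7672 in the 4 old arrays, against 9037, 9514, 9529 and 9769 in the 4 young arrays. The old arrays lay close together and all below the lowest young array. Mean intensity was 7642 ± 45.2 in old and 9462 ± 306 in young (SD, n = 4 each), a log2 difference of -0.31 (SE 0.05, 95% interval -0.42 to -0.20, limma adjusted p = 0.0033). Intensity was thus 1.24-fold lower in old tissue. The other Slc2a1 probe sets gave the same direction (-0.34, adjusted p = 0.00225, and -0.31, adjusted p = 0.0067). Over all genes, 859 had a smaller p than Slc2a1. The transporter Slc2a3, the neuronal form GLUT3, read 131, 250.4, 167 and 224 in the 4 old arrays, against 133, 140.1, 143 and 145 in the 4 young arrays. Its old arrays scattered, with replicates 2, 3 and 4 above every young array and replicate 1 below them all. Its difference did not pass (0.42, adjusted p = 0.132), and passed only without old replicate 1 (0.59, adjusted p = 0.0155). Its 4 probe sets ranged between -0.08 and 0.44. The set read here, 1437052_s_at, and the set 1455898_x_at were the positive ones. The dimmer sets 1421924_at and 1427770_a_at gave -0.08 and -0.04 (adjusted p = 0.621 and 0.861).

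Markers of RPE and of endothelium were lower on the same arrays as Slc2a1. Of 14 RPE markers, 9 were lower in old and none higher, and they summed to 115438 to 125705 in old and 133965 to 136395 in young. Among the most abundant of them, Dct was lower (-0.19, adjusted p = 0.046), while Ttr differed by -0.07 (adjusted p = 0.337) and Rgr by -0.08 (adjusted p = 0.234). Of 8 endothelial markers, 7 were lower, and they summed to 6791 to 8831 in old and 9952 to 12066 in young. The growth factor receptor Kdr was among them (-0.56, adjusted p = 0.0205). Among 10 glial markers (Mueller cells and astrocytes), 3 were lower (Fabp7 by -1.62, Slc1a3 by -1.41 and Gfap by -0.98, with adjusted p of 3.34e-05, 0.00486 and 0.00741) and 1 was higher (Vim, 0.19, adjusted p = 0.0304). Their mean log2 value, centred per gene, ran at -0.43 to -0.03 in old and 0.17 to 0.26 in young, while their summed intensity overlapped, at 37224 to 38547 in old and 36640.1 to 38411 in young. No marker of these lists was at 0, and the part of these cells in the Slc2a1 difference was not tested.

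In the preparatory phase of glycolysis, none of 8 genes passed the test, where 21.3% of all genes passed. Hexokinase, which traps glucose in the cell, differed by -0.12, adjusted p = 0.262 for Hk1 and 0.09, adjusted p = 0.79 for Hk2. Hk2 varied most between arrays of 1 age, reading 482, 662, 506 and 726 in the 4 old arrays, against 653, 714, 519 and 373 in the 4 young arrays. The phosphofructokinase genes, which encode the committed step, gave 0.04 for the liver form Pfkl, -0.13 for the muscle form Pfkm and -0.04 for the platelet form Pfkp (limma adjusted p = 0.77, 0.206 and 0.752). Aldolase A (Aldoa), which splits fructose bisphosphate, read 8765, 8226, 8731 and 8936 in the 4 old arrays, against 9620.0, 9658, 9554 and 9357 in the 4 young arrays. The ages did not overlap, but the difference was -0.14 and missed the threshold (adjusted p = 0.0814). All 5 Aldoa sets end in _x_at. Of these, 4 gave negative differences, and 1447734_x_at gave 0.10 (adjusted p = 0.221). Aldoc, the brain isoform of aldolase, also spread within each age, with 3429.9, 3586, 4732 and 4538 in the 4 old arrays, against 3076, 3682, 5329 and 5053 in the 4 young arrays, and differed by -0.05, adjusted p = 0.873. Its replicates 3 and 4 exceeded replicates 1 and 2 at both ages. Triose phosphate isomerase, Tpi1, differed by -0.09, adjusted p = 0.394.

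In the pay-off phase, 1 of the 6 genes in the fit was higher in old RPE/choroid (16.7%) and none was lower, against 11.8% and 9.56% of all genes. This was Pgam2 (1418373_at, its only probe set), the muscle isoform of phosphoglycerate mutase, which moves the phosphate group of phosphoglycerate. It read 209, 200.1, 195 and 186 in the 4 old arrays, against 127, 139.9, 131 and 165 in the 4 young arrays, so that every old array stood above every young one. Mean intensity was 197 ± 9.52 in old and 141 ± 17.1 in young (SD, n = 4 each), a log2 difference of 0.49 (SE 0.09, 95% interval 0.30 to 0.69, limma adjusted p = 0.00515) or 1.41-fold. These intensities were low, not far above the array median. Of 19 skeletal muscle markers, none passed the test in either direction, 4 had a positive and 15 a negative difference, and the median was -0.16. They summed to 3626, 2387, 2738 and 2142 in the 4 old arrays, against 2473, 2298, 3666 and 3991 in the 4 young arrays. Within each age, the array with the highest sum (old replicate 1, young replicate 4) also had the highest Pgam2, and old replicate 4 was the lowest old array in both. The order of the other arrays differed. Young replicate 2 had the lowest young sum (2298) but a higher Pgam2 (139.9) than young replicate 3 (131), whose sum was 3666. None of these markers was at 0, and the part of muscle in the Pgam2 values was not tested. The general isoform Pgam1 differed by 0.11, adjusted p = 0.297.

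Gapdh, which makes the NADH of glycolysis and often serves as a reference gene, was read from control probe sets. The set nearest the end of the transcript read 8050.3, 7933, 8347 and 8723 in the 4 old arrays, against 8909, 8919, 8797 and 8598 in the 4 young arrays. That is 8263 ± 352 in old and 8806 ± 149 in young, with old replicate 4 inside the range of the young arrays. The difference was -0.09 (exact permutation test, two-sided, p = 0.0571, where the smallest possible p is 0.0286). The other Gapdh sets gave -0.11 and -0.14, with the same exact permutation p. When the control sets were kept in the limma fit, their adjusted p was 0.132 to 0.246. Pkm, the pyruvate kinase gene that closes the pathway, read 3494, 3431, 3820.0 and 4187 in the 4 old arrays, against 3341, 3653, 3557 and 3381 in the 4 young arrays. Its ages overlapped, at 3733 ± 347 in old and 3483 ± 147 in young (SD, n = 4 each), and the difference was 0.10 (95% interval -0.07 to 0.26, adjusted p = 0.395). Phosphoglycerate kinase Pgk1, the first ATP-yielding step, differed by -0.02, adjusted p = 0.818. Among the enolases, the muscle form Eno3 differed by -0.06, adjusted p = 0.587.

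Eno2, the neuronal enolase, read 399, 371, 376 and 577 in the 4 old arrays, against 429, 474, 503 and 465 in the 4 young arrays. Old replicate 4 stood above all other arrays. With it the difference was -0.14, adjusted p = 0.497, and without it -0.29, adjusted p = 0.031. Markers of inner retinal neurons summed to 6550 on that same array, against 3292 to 3706 on the other old arrays and 6096 to 6445 on the young ones. The photoreceptor sum was 27131 on old replicate 4, 10481 to 16057 on the other old arrays and 12964 to 27234 on the young arrays. Whether neuronal RNA accounts for the Eno2 values was not tested.

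Neither lactate dehydrogenase gene passed the test, where 21.3% of all genes passed. Ldha, whose subunit favours lactate formation, read 4109, 4452, 4377 and 4661 in the 4 old arrays, against 4597, 4829, 4797 and 4364 in the 4 young arrays (-0.08, adjusted p = 0.395). Ldhb, whose subunit favours the return to pyruvate, read 4178, 3928, 4422 and 4455 in the 4 old arrays, against 4693, 4499, 4466 and 4577 in the 4 young arrays. On this brightest set of Ldhb, all old arrays lay below all young ones, by a small margin (-0.10, adjusted p = 0.239). The ages overlapped on the other Ldhb sets, which gave -0.08 to -0.03. The pyruvate dehydrogenase complex likewise held no change past the threshold among its 4 genes. Its subunits of the first enzyme differed by 0.02 for Pdha1 and -0.07 for Pdhb, its acetyltransferase Dlat by 0.04, and its dihydrolipoamide dehydrogenase Dld by less than 0.01 (limma adjusted p = 0.814, 0.407, 0.722 and 0.965).

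Of the 15 genes listed under the citric acid cycle, 1 was higher (6.67%) and 3 were lower (20%) in old RPE/choroid, against 11.8% and 9.56% of all genes. Among them, Idh1 and Aco1 encode cytosolic enzymes that lie outside the mitochondrial cycle, and they differed in opposite directions. Idh1, the cytosolic and peroxisomal isocitrate dehydrogenase that makes NADPH, was higher. Aco1, the cytosolic aconitase that also serves as an iron regulatory protein, was lower. The other 2 lower genes encode mitochondrial subunits: Idh3a, the catalytic subunit of the NAD-dependent isocitrate dehydrogenase, and Suclg1, the subunit shared by both forms of succinyl-CoA ligase.

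Idh3a (1432016_a_at) read 2164, 1999, 2038 and 2174 in the 4 old arrays, against 2425, 2562, 2438 and 2457 in the 4 young arrays. All old arrays fell below the young ones, at 2094 ± 88.3 in old and 2471 ± 62.1 in young (SD, n = 4 each), with a difference of -0.24 (SE 0.05, limma adjusted p = 0.0151). The other probe sets of Idh3a gave -0.36, adjusted p = 0.00323, then -0.27, adjusted p = 0.00609, and -0.22, adjusted p = 0.0532. The partner subunits were less clear. Idh3b read 2364, 2186, 2361 and 2444 in the 4 old arrays, against 2520.0, 2599.7, 2711 and 2660.2 in the 4 young arrays, again without overlap, and its difference of -0.17 missed the threshold (adjusted p = 0.0677). A second Idh3b probe set, 1418885_a_at, was lower (-0.25, adjusted p = 0.0339). The third subunit, Idh3g, differed by -0.06, adjusted p = 0.645, and the mitochondrial NADP-dependent enzyme Idh2 by 0.06, adjusted p = 0.6.

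Aco1 (1456728_x_at) read 2903, 2585, 2668 and 2627 in the 4 old arrays, against 3370.2, 3319, 3144 and 3204 in the 4 young arrays. Here too the ages did not overlap. Mean intensity was 2696 ± 142 in old and 3259 ± 104 in young (SD, n = 4 each), a difference of -0.27 (SE 0.06, limma adjusted p = 0.0114). The ending of this probe set marks probes that may also match other transcripts, and the other sets of Aco1, 1423644_at and 1447080_at, had the same sign but missed the threshold (-0.19, adjusted p = 0.0843, and -0.13, adjusted p = 0.184). Idh1 (1422433_s_at) read 1818, 1836, 2202 and 2019 in the 4 old arrays, against 1616, 1690.2, 1645 and 1688 in the 4 young arrays. Old replicates 3 and 4 were the highest, and all old arrays exceeded the young ones. Mean intensity was 1969 ± 180.1 in old and 1659.9 ± 35.6 in young (SD, n = 4 each), a difference of 0.24 (SE 0.07, limma adjusted p = 0.0413), and a second probe set, 1419821_s_at, gave 0.32, adjusted p = 0.00658. Both Idh1 sets end in _s_at, and the gene had no set with a different ending. The Idh1 call was lost on leaving out old replicate 3, old replicate 4 or any 1 young array, at adjusted p = 0.0622 to 0.0964.

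Suclg1 (1415891_at) read 2174, 2012, 2139 and 2157 in the 4 old arrays, against 2433, 2468, 2318 and 2356 in the 4 young arrays. The ages did not overlap, at 2120.5 ± 73.6 in old and 2394 ± 69 in young (SD, n = 4 each), and the difference was -0.18 (SE 0.05, limma adjusted p = 0.0453). This call was the weakest of the 6. It was lost on leaving out any 1 of the 8 arrays, at adjusted p = 0.0527 to 0.0997, with differences of -0.19 to -0.15. Suclg2, the subunit of the GTP-forming enzyme, read 1248, 1296, 1685 and 1546 in the 4 old arrays, against 1041, 1123, 1437 and 1507 in the 4 young arrays (0.18, adjusted p = 0.398), and replicates 3 and 4 exceeded replicates 1 and 2 at both ages. Sucla2, the subunit of the ATP-forming enzyme, differed by -0.09, adjusted p = 0.271.

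**Figure D2:**
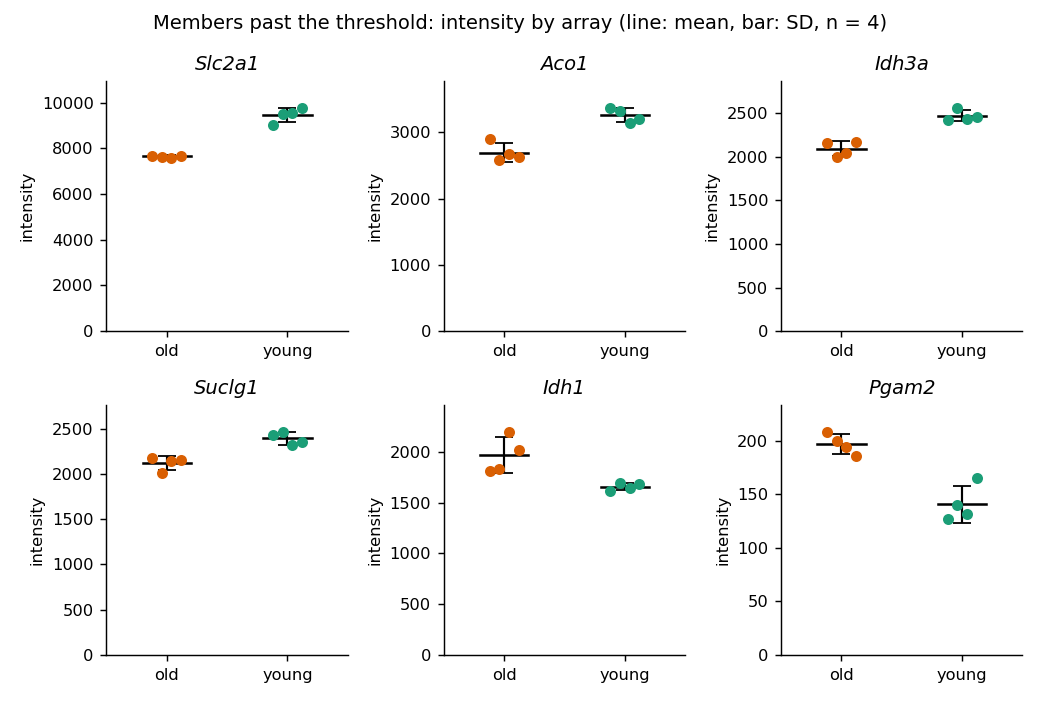
Intensity on each array for the 6 genes past the threshold, old to the left and young to the right, with the line at the mean and the bar at the SD (n = 4 per age, vertical axes from 0). In Slc2a1, Aco1, Idh3a and Suclg1 every old array lies below every young one, and in Idh1 and Pgam2 every old array lies above.

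The remaining cycle enzymes did not pass. Citrate synthase, Cs, which starts the cycle, differed by -0.03, adjusted p = 0.744, and the 2-oxoglutarate dehydrogenase subunits by 0.08, adjusted p = 0.414 for Ogdh and -0.01, adjusted p = 0.953 for Dlst. Fumarase, Fh1, differed by -0.15, adjusted p = 0.147. The malate dehydrogenases differed by -0.08, adjusted p = 0.248 for the cytosolic Mdh1 and -0.05, adjusted p = 0.559 for the mitochondrial Mdh2. On its brightest set, Mdh1 kept the ages apart, with 7428 to 7756 in old and 7904 to 8107 in young. The ages overlapped on the other Mdh1 sets, which gave -0.12 to 0.01. Pcx, pyruvate carboxylase, which refills the cycle with oxaloacetate, differed by 0.02, adjusted p = 0.862, and its 4 control probe sets by 0.02 to 0.18, with adjusted p of 0.353 to 0.895.

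Other probe sets of the same genes were read as a check on the choice of 1 set per gene. Of the 89 sets, 4 were higher, against 9.22% of all probe sets, and 10 were lower, against 8.75% of all probe sets. Slc2a1 was lower on all its sets and Idh1 higher on both. Some genes disagreed between their sets. Cs was higher on 1422577_at (0.23, adjusted p = 0.028) but not on its brightest set, and Dld was lower on 1433263_at (-0.30, adjusted p = 0.0327), a set with intensities near the array median. For Aldoc, a second, dimmer set gave 0.84 with an adjusted p of 0.062, against -0.05 on the brighter one.

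**Figure D3:**
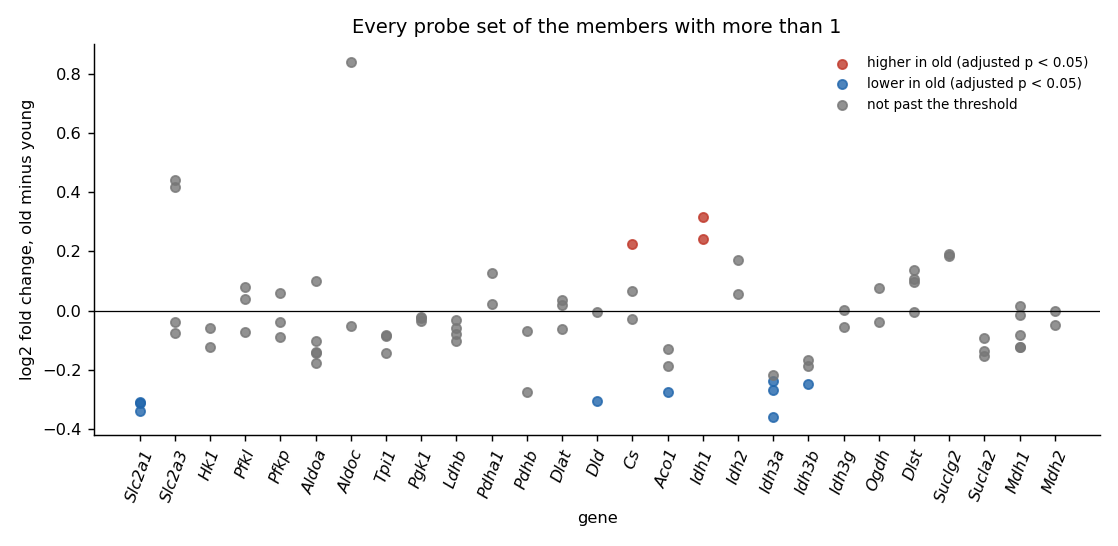
The log2 fold change, old minus young, of every probe set of the 27 genes with more than 1, each point a probe set, coloured by the limma call at an adjusted p under 0.05. Slc2a1, Idh1, Idh3a and Suclg2 have sets close together, while those of Slc2a3, Aldoc, Dld and Cs lie apart.

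As a whole, the 38 genes did not separate the ages. Centred on each gene's mean, the median over the 38 genes was -0.05, -0.08, -0.01 and 0.05 on the old arrays, against -0.01, 0.04, 0.05 and 0.03 on the young arrays. Old replicate 2 was the lowest and old replicate 4 overlapped the young arrays.

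**Figure D4:**
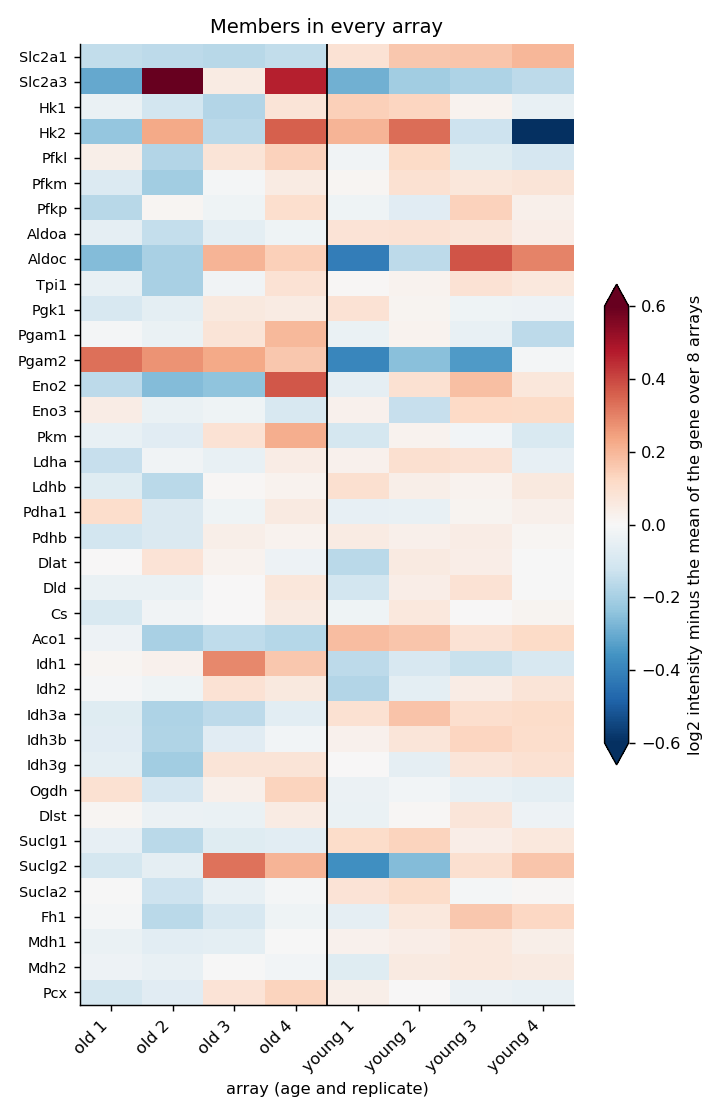
Log2 intensity of each gene on each array minus the gene's mean over the 8 arrays, old arrays left of the line and young arrays right of it (colour scale cut at 0.6 in both directions). Slc2a1, Aco1, Idh3a and Suclg1 are blue on the left and red on the right, Pgam2 and Idh1 the opposite, and Hk2, Aldoc, Eno2 and Suclg2 vary within an age.

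Whether isoforms of the same step changed unequally was tested on their log2 difference within each array, for 12 pairs. No pair passed after adjustment over the 12, but with 4 arrays per age a pair could pass only if most of the 12 reached the smallest p possible. Slc2a1 over Slc2a3 ran at 4.93 to 5.87 in old and 6.06 to 6.09 in young, a difference of -0.73 (exact permutation test, two-sided, p = 0.0286, adjusted 0.171). Pfkl over Pfkm ran at 1.29 to 1.38 in old and 1.08 to 1.28 in young, a difference of 0.17, with the same exact p and adjusted value. These 2 pairs did not overlap between the ages, and their p is the smallest that 4 against 4 arrays can give. The first pair rests on the Slc2a3 set ending in _s_at. The dimmer Slc2a3 sets 1421924_at and 1427770_a_at had differences of the opposite sign. Pgam1 over Pgam2 differed by -0.38 and Idh1 over Idh2 by 0.19 (exact p = 0.0571 each, adjusted 0.171), and Suclg2 over Sucla2 by 0.28 (exact p = 0.2, adjusted 0.48). The balance of Ldha to Ldhb differed by 0.03 (exact p = 0.657), with a range of -0.02 to 0.18 in old and -0.07 to 0.10 in young. The other 6 pairs differed by -0.22 to 0.08, with exact p of 0.343 or more.

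Other genes of glucose metabolism regulate the pathway, branch from it or supply other isoforms of its steps. Of 75 measured, 13 were higher in old (17.3%) and 6 lower (8%), where 11.8% and 9.56% of all genes were. Their median difference was 0.02, and 24 of them had no overlap between the ages (32%), against 29.5% of all genes. These counts moved with single arrays: without old replicate 3 or young replicate 3, 8 were higher, and without any 1 of old replicates 2, 3 and 4 or young replicate 1, 3 were lower.

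The regulators held 6 higher genes (33.3%) and 1 lower (5.56%) among 18, against 11.8% and 9.56% of all genes. Pfkfb3, which makes the fructose 2,6-bisphosphate that activates phosphofructokinase, read 238, 288, 300.3 and 229 in the 4 old arrays, against 105, 135, 117 and 116 in the 4 young arrays. The old arrays all exceeded the young ones, with a log2 difference of 1.15 (SE 0.11, limma adjusted p = 0.000208), or 2.22-fold. It depends on the probe set read, since the mean of all Pfkfb3 sets gave 0.55 (adjusted p = 0.00274). Pfkfb4, its relative, read 406, 402, 471 and 423 in the 4 old arrays, against 279, 274, 290.3 and 311 in the 4 young arrays (0.56, SE 0.07, adjusted p = 0.000953). Pdk4, a kinase that inactivates pyruvate dehydrogenase, read 178, 291, 275 and 257 in the 4 old arrays, against 156, 149, 162 and 204 in the 4 young arrays. It was higher as well (0.56, SE 0.16, adjusted p = 0.0377), but the ages overlapped and the call was lost without any 1 of 6 arrays (old replicates 2 to 4, young replicates 1 to 3), at adjusted p up to 0.0983. Pdp1, a phosphatase that acts on the same enzyme in the opposite sense, read 229, 221, 257 and 237 in the 4 old arrays, against 173, 187, 165 and 165 in the 4 young arrays, without overlap (0.45, SE 0.07, adjusted p = 0.00253). Mpc1, a subunit of the carrier that brings pyruvate into the mitochondrion, was higher too (0.26, adjusted p = 0.0094), as was Txnip, an inhibitor of glucose uptake (0.29, adjusted p = 0.0263). The Txnip call was lost without old replicate 2, old replicate 3 or any 1 of young replicates 1 to 3, at adjusted p up to 0.0754. The coactivator of mitochondrial genes Ppargc1a was lower, with 684, 550.1, 477 and 528 in the 4 old arrays, against 1017, 947, 815 and 787 in the 4 young arrays (-0.68, SE 0.12, adjusted p = 0.00609). Its ages did not overlap, but the mean of all Ppargc1a sets gave -0.13 and lost the call (adjusted p = 0.149), as did leaving out old replicates 2 and 4 (-0.63, adjusted p = 0.0593). Hif1a, the hypoxia-inducible factor subunit, differed by -0.01, adjusted p = 0.891. It depended on the processing, since over 20 other fits its difference ran between -0.19 and 0.01, with a smallest adjusted p of 0.0515.

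Among other isoforms of the same steps, 3 of 18 were higher (16.7%) and 1 lower (5.56%), against 11.8% and 9.56% of all genes. Hk3, a hexokinase, read 602, 664, 727 and 649 in the 4 old arrays, against 483, 469, 522 and 504 in the 4 young arrays (0.42, SE 0.07, limma adjusted p = 0.00416), without overlap. This set too ends in _x_at, and another set of Hk3 gave 0.20 and missed the threshold (adjusted p = 0.0784). Bpgm, which makes 2,3-bisphosphoglycerate, was higher (0.25, adjusted p = 0.0112, and 0.41, adjusted p = 0.0101, on a set ending in neither _x_at nor _s_at). The transporter Slc2a8 was higher (0.24, adjusted p = 0.0452) and the urate and glucose transporter Slc2a9 lower (-0.23, adjusted p = 0.0492). Both calls sat at the threshold: Slc2a8 was lost without any 1 array but old replicate 1, at adjusted p up to 0.117, and Slc2a9 without any 1 of the 8, at 0.0507 to 0.128. The mean of all Slc2a9 sets gave -0.07 (adjusted p = 0.453). The pentose phosphate pathway, which makes NADPH, held 2 higher genes among 6 (33.3%) and none lower. Pgd, its decarboxylating dehydrogenase, read 2071, 2379, 2390.5 and 2334 in the 4 old arrays, against 1466, 1647, 1584 and 1449 in the 4 young arrays, without overlap (0.58, SE 0.07, adjusted p = 0.000797). Pgls, its lactonase, differed by 0.23, adjusted p = 0.0286, and lost this call without any 1 of 5 arrays (old replicates 3 and 4, young replicates 1, 3 and 4), at adjusted p up to 0.079.

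Macrophage markers were higher in the same arrays as these genes. Of 12 markers, 10 were higher in old RPE/choroid and none lower, and they summed to 35408 to 40318 in old and 18498 to 20611 in young. Tyrobp, a signalling adaptor of myeloid cells, differed by 1.1 (adjusted p = 3.34e-05) and the complement gene C1qa by 1.01 (adjusted p = 3.69e-05), whereas the receptor gene Csf1r differed by -0.04 (adjusted p = 0.691). Other marker sums were also higher on every old array. Those of 5 fat cell markers ran at 1556 to 2275 in old and 679 to 840 in young. Those of 7 markers of sclera and fibroblasts ran at 31742 to 37393 in old and 28645 to 31417 in young. Of these lists, 1 and 2 genes were higher and none lower, against 11.8% and 9.56% of all genes. The part of any of these cells in the values of Pfkfb3, Pfkfb4, Hk3, Pgd, Idh1 or Pgam2 was not tested.

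**Figure D5:**
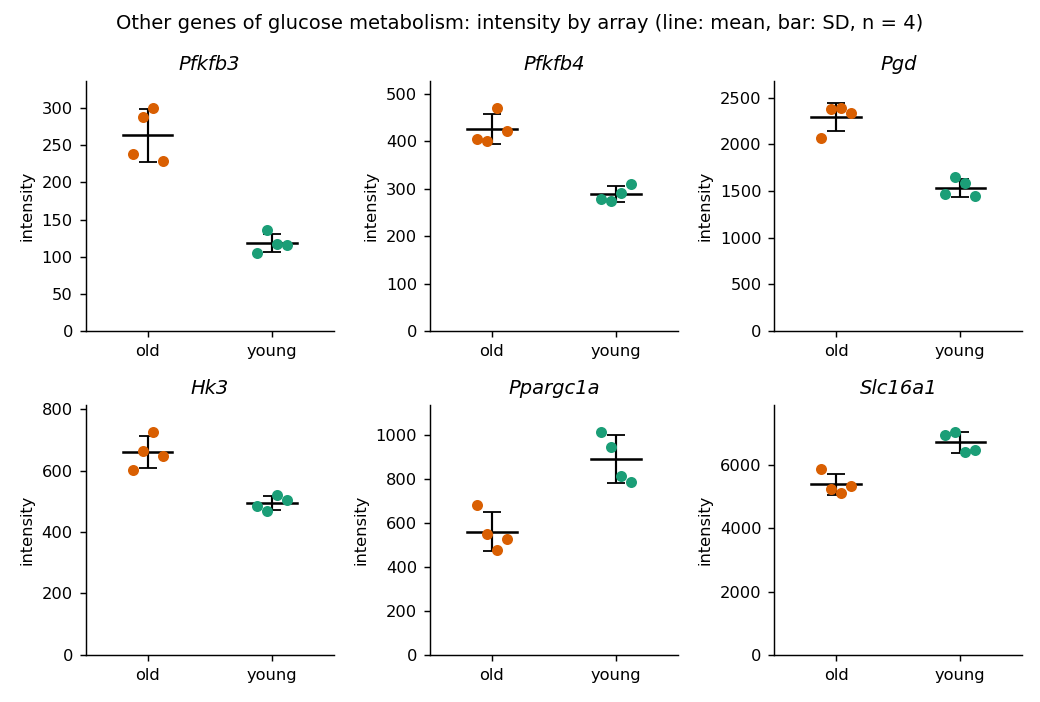
Intensity on each array for 6 genes that regulate or branch from glycolysis or carry lactate, old to the left and young to the right, with the line at the mean and the bar at the SD (n = 4 per age, vertical axes from 0). Pfkfb3, Pfkfb4, Pgd and Hk3 are higher on every old array than on any young one, and Ppargc1a and Slc16a1 lower.

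Of the 5 genes listed as lactate transporters, 3 were lower in old RPE/choroid and none was higher, against 9.56% and 11.8% of all genes. The transporter Slc16a1 read 5870.4, 5233, 5096 and 5325 in the 4 old arrays, against 6938, 7046, 6394 and 6467 in the 4 young arrays, without overlap (-0.32, SE 0.06, limma adjusted p = 0.00979). Slc16a8, the transporter particular to the RPE and also 1 of the 14 RPE markers, read 4685, 4627, 4619 and 4754 in the 4 old arrays, against 6259, 5998, 5029 and 5144 in the 4 young arrays (-0.26, adjusted p = 0.0488). Bsg, basigin, which brings these transporters to the membrane, read 9481, 8531, 9046 and 9045 in the 4 old arrays, against 10619.7, 10891, 10012 and 10008 in the 4 young arrays (-0.20, adjusted p = 0.0378). The ages overlapped for none of the 3. The other transporters had positive differences that missed the threshold, with 0.23 (adjusted p = 0.227) for Slc16a3, whose ages overlapped, and 0.20 (adjusted p = 0.0826) for Slc16a7, which read 90.7 to 103 in old and 76.1 to 88.9 in young. The call of Slc16a8 was lost with the mean of all its probe sets (-0.18, adjusted p = 0.139), and also without any 1 old array, young replicate 1 or young replicate 2 (adjusted p up to 0.108), and that of Bsg without any 1 array but old replicate 1 (up to 0.0883). As given with Slc2a1, RPE markers were lower on the same arrays.

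Counts of the other branches stand beside 11.8% of all genes higher and 9.56% lower. In glycogen metabolism, 1 of 10 genes was higher (10%) and 1 lower (10%). Pygm, the muscle glycogen phosphorylase, read 907, 878, 889 and 897 in the 4 old arrays, against 1079, 1090.5, 1119 and 1189 in the 4 young arrays, without overlap (-0.33, SE 0.05, limma adjusted p = 0.00344). Pgm2, a phosphoglucomutase, was higher (0.23, adjusted p = 0.0404), though not without any 1 of 6 arrays (old replicates 2 to 4, young replicates 1, 3 and 4), at adjusted p up to 0.101. In the malate-aspartate shuttle and citrate export, 1 of 11 was higher (9.09%), the mitochondrial citrate carrier Slc25a1 (0.30, SE 0.07, adjusted p = 0.0172). None of the 7 genes of gluconeogenesis passed, and those with the smallest p were Pck2 (0.17, adjusted p = 0.0684) and Pck1 (-0.25, adjusted p = 0.163), the mitochondrial and cytosolic forms of phosphoenolpyruvate carboxykinase. Pck2 passed without old replicate 2 (adjusted p = 0.0322). With the mean of all sets of each gene, the signs turned, at -0.03 for Pck2 and 0.08 for Pck1 (adjusted p = 0.753 and 0.485).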

How the data were processed

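RNA of RPE/choroid from 4 old and 4 young samples was profiled with the Affymetrix Mouse 430 array, version 2.0, each sample on its own. The deposited values are intensity that the authors had normalized, and which step they used is not named. Their methods name RMA in affy, invariant set normalization in Dchip and BRB-ArrayTools. The values are linear, and background and normalization can compress differences of dim probe sets.

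Values were floored at 1, put on the log2 scale and fitted with limma 3.58.1 in R 4.3.3 (lmFit and eBayes, old against young, no covariate), with Benjamini-Hochberg adjustment over 45037 probe sets. Of 45101 probe sets, 64 controls were left out. The fit was tested on simulated data. A gene was read from its brightest probe set (by mean log2 over the 8 arrays) among those annotated to it alone (18193 genes in the fit), so levels of different genes were not compared. A gene is called higher or lower at an adjusted p under 0.05. Isoform pairs were tested by an exact permutation test over all 70 splits of the arrays. The number of arrays limits the precision. Samples are pools of separate animals, so the p-values measure the spread between pools.

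Per-array intensities are given for genes past the threshold, Gapdh and Pkm. Of the lists of other metabolic genes, which were written from textbook knowledge, up to 4 genes with the largest change past the threshold are named, or the 2 with the smallest p, and of marker lists some of the 3 most abundant. Others (Slc2a3, Hk2, Aldoa, Aldoc, Eno2, Ldha, Ldhb, Idh3b, Suclg2, Mdh1, Hif1a, Pdp1, Mpc1, Txnip, Slc16a3, Slc16a7, Rpe65 and the Mueller glia markers) were chosen after their values were seen. The genes and lists were chosen with earlier results of these data known. Promoters are RefSeq sequences of GRCm38.p6, which also served for gene names. Results were computed again with probe sets of mean log2 under 6 left out, a pseudocount of 16, median centring and quantile normalization. Further fits used trend and robust settings in eBayes, weights for arrays, or a block for the replicate number. Others left out each array in turn, or old replicates 2 and 4. Genes were also read from the mean of all their probe sets. In another fit, sets ending in _x_at or _s_at were left out where the gene had a different set. An adjusted p under 0.01 was used as well. Leaving out replicate 4 of both ages and keeping the control sets of Gapdh and Pcx were added after seeing the data.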

Additional observations from a re-analysis of the deposited data

Results flagged for a closer look

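On 4 of 126 groups of 4 arrays (both ages of each gene described), 1 array stood apart from the other 3, with a gap to its nearest neighbour beyond the critical value of Dixon's test for 4 values, as a share of the group's range. Chance gives such a gap in about 1 of 20 groups. Gaps and ranges were taken on the log2 scale, while the readings given here are intensities. Eno2 read 577 on old replicate 4, against 371 to 399 on the other old arrays, a gap of 0.835 of the range. Mdh2 read 4253 on young replicate 1, against 4641 to 4673 on the other young arrays (0.928). Pgd read 2071 on old replicate 1, against 2334 to 2390.5 on the other old arrays (0.833), and still exceeded every young array. Slc16a7 read 103 on old replicate 3, against 90.7 to 92.3 on the other old arrays (0.862).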

How the results depend on the processing

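Slc2a1 and Pgam2 kept their direction and stayed past the threshold in all 20 fits besides the reported one at an adjusted p under 0.05 (adjusted p at most 0.0361 and 0.035). Aco1 and Idh3a did so in 17 of the 20, Idh1 in 10 and Suclg1 in 8. Aco1 was lost without the _x_at and _s_at sets (adjusted p = 0.0843). In that fit Idh1 was still read from its _s_at set, as it had no set with a different ending. Idh3b passed in 6 fits. Against 2 listed genes higher and 4 lower in old, quantile normalization gave 1 higher, and the added omission of replicate 4 of both ages, the omission of old replicates 2 and 4, and an adjusted p under 0.01 each gave 1 higher and 1 lower. Leaving out 1 array gave 1 to 3 higher and 3 to 4 lower. Of the 75 other metabolic genes, with 13 higher and 6 lower, median centring gave 3 lower, the omission of old replicates 2 and 4 gave 7 higher and 1 lower, that of replicate 4 of both ages 5 and 3, an adjusted p under 0.01 gave 6 and 3, and leaving out 1 array 8 to 13 higher and 3 to 5 lower. Fits without arrays hold fewer samples, and the cause of the other shifts was not tested. The arrays were fitted as unpaired. Same-numbered arrays correlated at 0.019 to 0.0971 in their deviations over all probe sets, and only replicate 1 did so best with its own number. Correlations over all probe sets cannot exclude an effect of the replicate number on single genes. With the replicate number as a block, 1 listed gene was higher (Pgam2) and 2 lower (Slc2a1, Aco1), and 3 of the other genes were lower, while all genes gave 1655 higher and 1258 lower, against 2145 and 1739 without the block. Over all genes, median centring gave 2478 higher and 1345 lower, and quantile normalization 1921 and 2053. Of 1302 values of single genes, 1154 kept their side of the threshold, 134 fell short of it, 14 passed newly, and no called value changed sign, though 46 values of 17 genes called in neither fit did. The median over the 38 genes stayed below 0. How far a small change could be seen is limited by 4 arrays per age, and most for dim sets.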
